A study of Mus musculus with 4 samples.

Results

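Bile acid synthesis is the main route by which the liver disposes of cholesterol. In the classic pathway, hydroxylation of the sterol ring by Cyp7a1 comes first and limits the rate. In the alternative pathway, oxidation of the side chain by Cyp27a1 precedes ring hydroxylation by Cyp7b1. Shared enzymes then remodel the ring (Hsd3b7, Akr1d1), Cyp8b1 directs the products towards cholic acid, and peroxisomal and ligase steps shorten the side chain and activate it for coupling to an amino acid (Amacr, Scp2, Slc27a5). Synthesis is carried out by hepatocytes and is held back by bile acids themselves through the nuclear receptor FXR (Nr1h4) and its target SHP (Nr0b2).

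The accessibility of these 9 genes, of 20753 autosomal protein-coding genes with a unique symbol, was followed in mouse hepatocytes during regrowth of the liver after surgical resection (partial hepatectomy, PHx). The 9 are a named list of pathway enzymes. There were 4 scATAC-Seq libraries, 1 per time point. Hepatocytes came from male C57BL/6J mice aged 10 to 12 weeks by the labels, on a normal diet, either from undamaged liver (PHx 0 h) or at 48, 72 and 96 h after PHx. No genetic change or drug was part of any group. Cells were freed by 2-step collagenase perfusion, and their nuclei were profiled with the 10X Chromium assay, in which the Tn5 transposase cuts open DNA and a droplet barcode marks the nucleus. A single hepatocyte preparation went into the 0 h library and another, of 1 mouse, into the 48 h library. The sources used here do not give the number of animals behind the 72 and 96 h libraries. With 1 library per time point no test was possible, and time after PHx and library cannot be told apart.

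Nuclei, taken as barcodes with at least 1000 counts in peaks, numbered 3224 to 4256 per library. Their median depth was highest in undamaged liver (26005 counts) and lower in each later library (11629, 4841 and 3682 counts). The peaks, called by the authors in each library separately, covered 153.6, 179.0, 141.2 and 60.9 Mb. Pairs of libraries had between 681 and 882 barcode sequences in common. The labelled cell type was checked against markers: all 10 hepatocyte markers had counts in every library, with a summed level of 4200 to 6212 CPM (counts per 1000000 counts of the library). At 0, 48, 72 and 96 h, summed levels were 418, 420, 478 and 227 CPM for 10 endothelial genes and 125, 174, 161 and 52.9 CPM for 9 Kupffer and myeloid genes. They were 78.2, 135, 178 and 133 CPM for 10 stellate genes and 209 to 224 CPM for 8 biliary genes. The summed endothelial and myeloid levels were thus lowest at 96 h, and the stellate sum was highest at 72 h. Single genes weighed on these sums: Cd68 had 100.5 CPM at 0 h and 8.90 at 96 h, and Egfl7 161.7 and 46.1. Over the merged regions described below, their log2 ratios at 96 h were -0.63 and 0.04. Csf1r (21.2 and 38.1 CPM) and Kdr (8.19 and 16.9) went the other way. The Kupffer gene Cd5l was at 0 in every library, Marco and Timd4 were at 0 counts at 0, 48 and 96 h, and the biliary gene Krt19 was at 0 counts at 0, 48 and 96 h. The part of these cells in the results below was not tested.

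A gene's level was the sum of counts in all called peaks that touched its body or the 2 kb upstream, in CPM, with an exact 95% Poisson interval computed on fragments. These intervals cover counting error only. Because a peak was counted whole, and because wide domains were called as 1 peak in some libraries and as several in others, a second measure took every peak of the merged regions (peaks of the 4 libraries that touch each other) at the gene, and another divided the level by the peak length covered. A gene was called at a 2-fold difference from 0 h, on the log2 scale with a pseudocount of 1 CPM. All comparisons share the 0 h library.

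At 48 h, Cyp7a1 and Cyp7b1 were at least 2-fold higher than in undamaged liver, which makes 2 of 9 members where 4.9% of all 14856 genes compared were called higher. Cyp8b1 was at least 2-fold lower, 1 of 9 members where 1.97% of genes were lower. At 72 h, Cyp7a1 was the 1 member called higher (10.3% of 15057 genes, so that this count is near the background) and Cyp8b1 the 1 called lower (6% of genes). At 96 h, Cyp7a1 was again called higher (4.65% of 14613 genes), and Cyp8b1, Amacr and Scp2 were called lower (8.48% of genes). The median log2 ratio of the 9 members was 0.19, -0.38 and -0.95 at 48, 72 and 96 h, beside -0.04, -0.01 and 0.07 for all genes compared. This median depended on the way of counting. Over 20 alternatives it ran from -0.14 to 0.26 at 48 h, from -1.07 to -0.01 at 72 h and from -1.17 to 1.80 at 96 h. In the gene window, Cyp7a1 and Cyp8b1 were thus on opposite sides of undamaged liver at each of the 3 time points, while most of the other enzymes lay within 2-fold of it at 48 and 72 h.

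**Figure D1:**
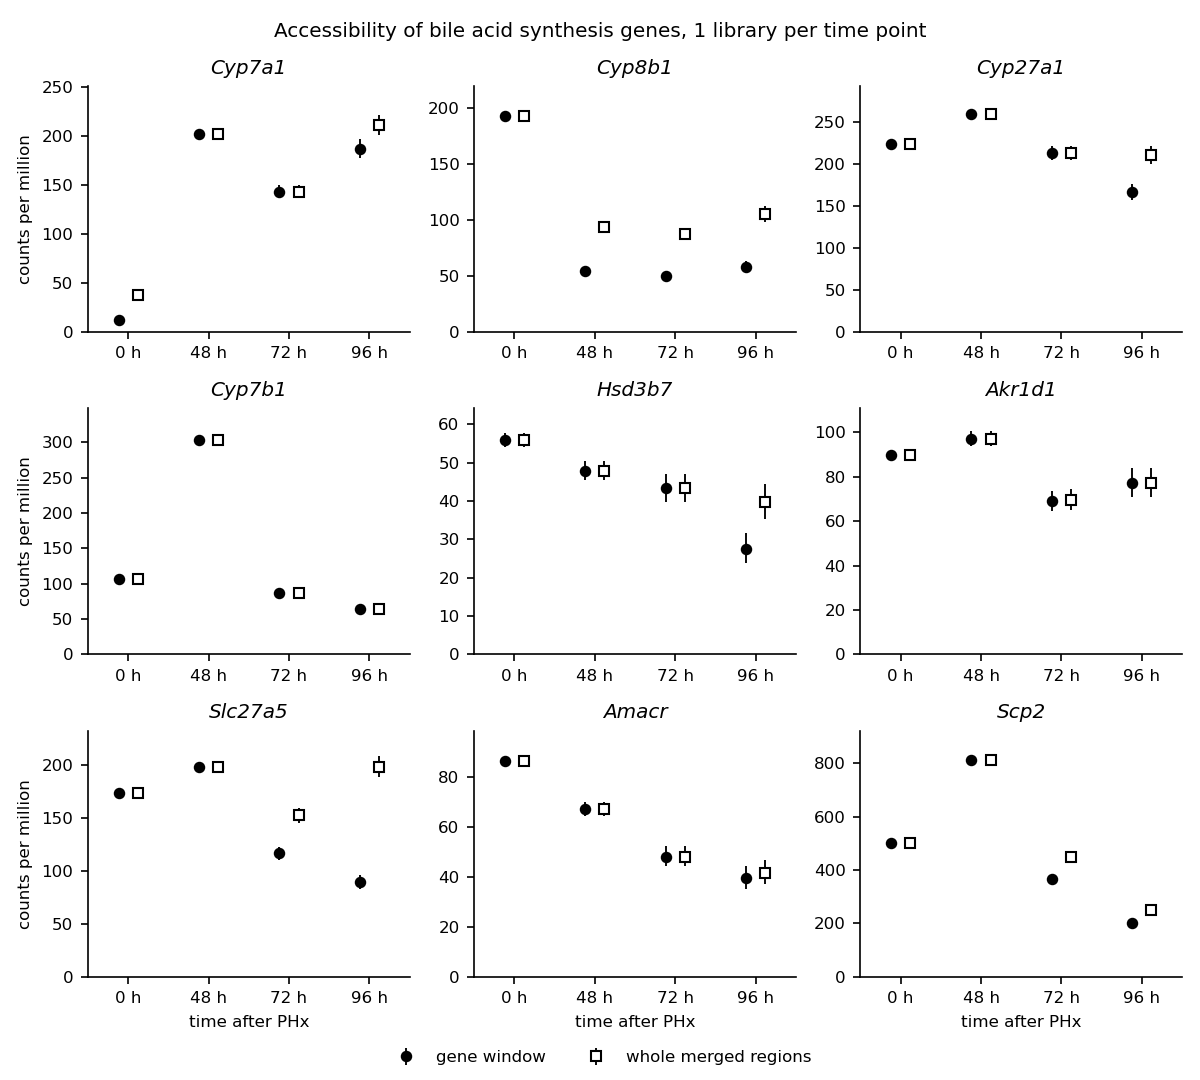
Level of each of the 9 genes in CPM (y axis, linear, from 0) in the 4 libraries (x axis, time after PHx). Filled circles count peaks that touch the gene window, open squares count all peaks of the merged regions at the gene, and bars are 95% Poisson intervals; Cyp7a1 is higher and Cyp8b1 lower than at 0 h in every later library on both measures.

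Cyp7a1 (ENSMUSG00000028240.2, GRCm38 chr4:6265612-6275633, minus strand), the rate-limiting enzyme of the classic pathway, had 12.4 CPM at 0 h (interval 11.6–13.3), 202.4 at 48 h (197.4–207.5), 143.4 at 72 h (136.8–150.2) and 187.1 at 96 h (177.5–197.2). The 0 h library was the low one, and no later interval came near it. The log2 ratios to 0 h were 3.92 (3.82 to 4.03), 3.43 (3.31 to 3.55) and 3.81 (3.69 to 3.94). Among all genes compared, Cyp7a1 ranked 21 from the highest at 48 h, 41 at 72 h and 1 at 96 h.

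Part of this difference lay in how the peaks were drawn. At 0 h the gene had short separate peaks, 5 of them in the window with 3224 bp in all, and 3 more beyond the gene's end that did not touch the window. At 48 h a single peak of 18582 bp ran from 809 bp before the gene start to 17772 bp past it and took in the downstream sites. With all peaks of this region counted in each library, Cyp7a1 had 37.6 CPM at 0 h (36.1–39.1), 202.4 at 48 h, 143.4 at 72 h and 211.6 at 96 h (201.3–222.3), log2 ratios of 2.40, 1.90 and 2.46. On this measure the 48 and 96 h intervals overlapped, that of 72 h lay below both, and the 0 h library was still lowest.

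The density of counts within the peaks was also higher. Over the whole region it was 5.96 CPM per kb at 0 h, 10.9 at 48 h, 8.32 at 72 h and 16.3 at 96 h. At 48 h the log2 ratio of this density was 0.84, which ranked 18 from the highest of 14868 genes, whose median was -0.22. At 72 h it was 0.45 and at 96 h 1.42, and relative to the median of all genes these were 0.30 and 0.17. In the gene window alone, Cyp7a1 was 1 of 11 of 14833 genes (0.0742%) with a density at least 2-fold higher at 48 h.

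The site of the added counts differed along the gene. The peak at the gene start held 7.47 CPM over 1374 bp at 0 h (6.83–8.15), 7.93 CPM over 1205 bp at 72 h (6.44–9.66) and 11.6 CPM over 723 bp at 96 h (9.27–14.3). At 48 h it was fused with the rest and has no value of its own. The intervals of the start-site peak at 0 and 72 h overlapped, while the levels over the body and the sequence downstream were far apart. At 0 h the largest peaks of the region lay downstream of the gene, with 14.8 CPM between 12025 and 13650 bp from the start and 9.30 CPM between 16727 and 17759 bp. At 72 h a single peak from 1745 to 17766 bp held 135.5 CPM. At 96 h the largest peak, from 8936 to 15485 bp, held 133.6 CPM, and the peak from 2387 to 6089 bp held 38.7 CPM.

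**Figure D2:**
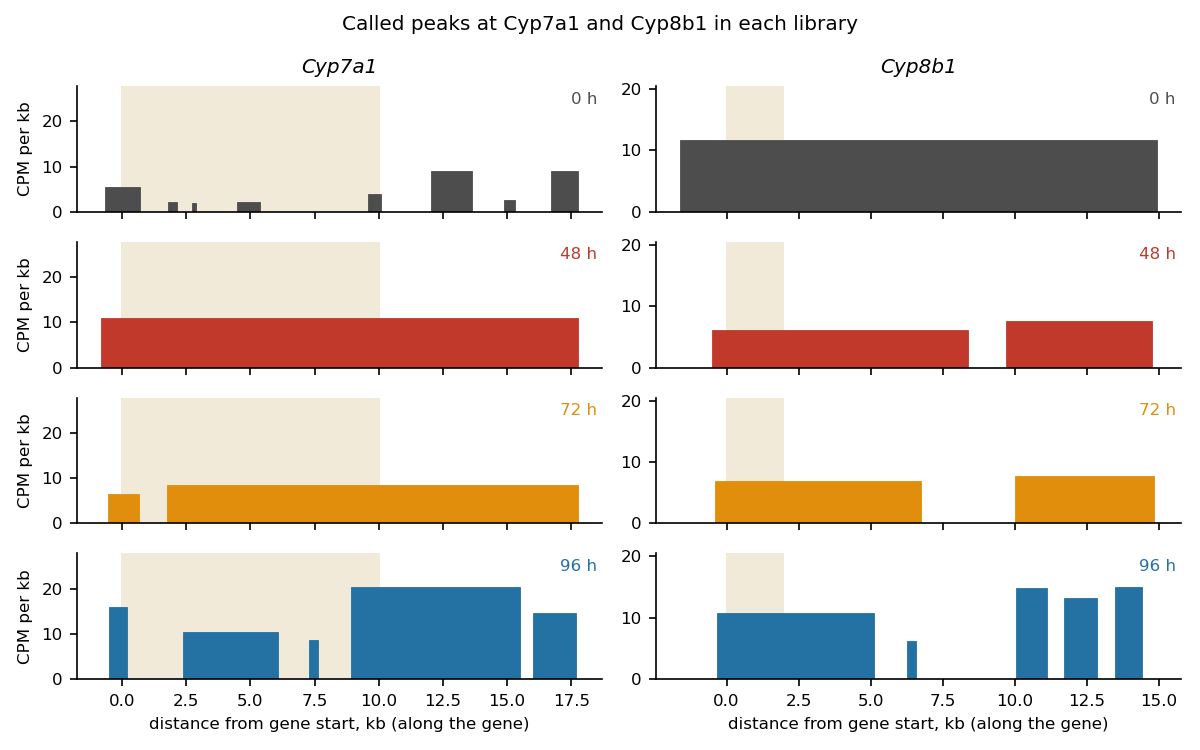
Every called peak of the merged region at Cyp7a1 (left) and Cyp8b1 (right) in each library, by distance from the gene start in kb (x axis, in the direction of transcription) and density in CPM per kb (y axis, linear, from 0); the shaded band is the gene. Cyp7a1 has separate short peaks at 0 h and a single peak of 18582 bp at 48 h, while the single peak of 16550 bp at Cyp8b1 at 0 h is split in the later libraries.

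Cyp8b1 (ENSMUSG00000050445.4, chr9:121914356-121916305, minus strand), the sterol hydroxylase that directs synthesis towards cholic acid, was highest at 0 h. Its level was 192.9 CPM at 0 h (189.6–196.2), 54.9 at 48 h (52.3–57.6), 49.6 at 72 h (45.8–53.7) and 58.0 at 96 h (52.6–63.7). The 0 h library was high, and the 3 later ones were close to each other, with intervals of 48 and 96 h that overlapped. The log2 ratios were -1.79 (-1.87 to -1.72), -1.94 (-2.06 to -1.82) and -1.72 (-1.86 to -1.58). With binarised counts they were -0.59 at 48 h and -0.53 at 72 h, and Cyp8b1 was called lower at no time point.

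At 0 h Cyp8b1 lay in 1 peak of 16550 bp, from 1616 bp before the gene start to 14933 bp past it, and had the highest density of the 9 members, 11.7 CPM per kb. In the gene window Cyp7a1 had the lowest, 3.85, while over whole merged regions it had 5.96, above Cyp7b1 (5.20) and Scp2 (5.48). At 48 h the peak over the gene covered 8874 bp and a second peak of 5053 bp, from 9707 to 14759 bp past the start, did not touch the window. With both counted, the levels were 192.9, 93.5, 87.2 and 105.4 CPM and the log2 ratios -1.04, -1.14 and -0.87, so that the 96 h library no longer passed 2-fold. The density over the whole region was 11.7 CPM per kb at 0 h, 6.71 at 48 h, 7.28 at 72 h and 11.8 at 96 h. At 96 h the log2 ratio of its density was 0.03, which relative to the median of all genes was -1.22 and ranked 49 from the lowest of 14658. The wide peak at 0 h and the peaks over the gene at 48 and 72 h also touched the window of another gene, so that their counts are not of Cyp8b1 alone.

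Promoter sequences were taken from the RefSeq table (build GRCm38.p6), which matched 5 of the 9 members (Cyp8b1, Cyp27a1, Hsd3b7, Akr1d1 and Scp2; not Cyp7a1, Cyp7b1, Slc27a5 or Amacr). They are shown for the 2 members in which a searched motif was found, as the 250 bases before the gene start, 5′ to 3′ on the gene's strand, with matches in capitals. The search covered both strands and the window from 250 bases before to 50 after the start. In Cyp8b1 (chr9:121916306-121916555, minus strand), the capitals hold CAAAGTCCA, a motif of HNF4 found in 0.475% of all 32851 promoters, at 67 to 59 bases before the start, and CAAGGNCA, a motif of LRH-1 and SF-1 found in 6.71%, at 60 to 53 bases before it. The matches overlap. In Akr1d1 (chr6:37529923-37530172, plus strand), they hold TTGCNNAA, a motif of C/EBP found in 10.8% of promoters, on the opposite strand directly before the start.
Cyp8b1: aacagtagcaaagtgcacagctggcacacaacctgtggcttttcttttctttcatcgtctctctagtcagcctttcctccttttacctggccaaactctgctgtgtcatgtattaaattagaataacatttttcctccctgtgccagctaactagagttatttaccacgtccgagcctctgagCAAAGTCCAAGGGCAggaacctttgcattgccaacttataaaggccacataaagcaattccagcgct
Akr1d1: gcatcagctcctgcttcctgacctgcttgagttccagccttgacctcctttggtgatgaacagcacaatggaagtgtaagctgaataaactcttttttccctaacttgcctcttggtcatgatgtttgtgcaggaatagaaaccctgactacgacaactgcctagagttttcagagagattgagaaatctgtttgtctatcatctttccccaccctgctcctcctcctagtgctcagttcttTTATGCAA
None of these 5 promoters held the other motifs searched, TTATGTAA (DBP and related factors, in 0.938% of promoters), TGTTTAC (FOXA, 3.65%), the HNF1 palindrome (0.0609%) or the FXR inverted repeat (0.00913%). A match is a description of the letters and does not show binding. The Cyp8b1 stretch lay inside the peak over the gene start in all 4 libraries.

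In the alternative pathway, Cyp27a1 (ENSMUSG00000026170.6, chr1:74713574-74737892, plus strand), the mitochondrial enzyme that oxidises the sterol side chain had 223.4 CPM at 0 h, 259.6 at 48 h, 212.6 at 72 h and 166.5 at 96 h. With all peaks of the region counted the 96 h level was 209.8 CPM, so that its log2 ratios were 0.22, -0.07 and -0.09. The region was a single peak of 34143 bp at 0 h and of 33890 bp at 48 h, and was called as 15 peaks at 96 h. The peaks at 0 and 48 h also touched the window of another gene.

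Cyp7b1 (ENSMUSG00000039519.6, chr3:18071950-18243338, minus strand), the oxysterol hydroxylase of the alternative pathway, stood apart at 48 h. It had 106.1 CPM at 0 h (103.7–108.6), 303.7 at 48 h (297.6–309.9), 86.3 at 72 h (81.2–91.6) and 64.6 at 96 h (59.0–70.6). The 48 h library was high and the others lay below it in the order 0, 72 and 96 h. The log2 ratio at 48 h was 1.51 (1.46 to 1.55), and 72 h was lower than 48 h by a log2 ratio of -1.80 (-1.90 to -1.71).

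The difference of Cyp7b1 at 48 h was one of breadth. Peaks that touched the window of this 171 kb gene covered 20431 bp at 0 h, 86057 bp at 48 h, 16857 bp at 72 h and 5498 bp at 96 h, in 22, 61, 25 and 7 peaks. These lengths include sequence upstream of the gene start. Of 62 merged regions at the gene, 39 had a peak at 48 h alone, with 93.6 CPM between them. In the 7 regions with a peak in all 4 libraries, levels were 90.9, 124.7, 66.5 and 64.6 CPM. The density at 48 h was below that of undamaged liver, with 3.53 CPM per kb against 5.20, a log2 ratio of -0.57 beside a median of -0.22 for all genes. The promoter peak had 28.2 CPM at 0 h (26.9–29.5), 29.0 at 48 h (27.2–31.0), 21.7 at 72 h (19.2–24.4) and 30.5 at 96 h (26.7–34.8), with overlapping intervals at 0, 48 and 96 h.

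**Figure D3:**
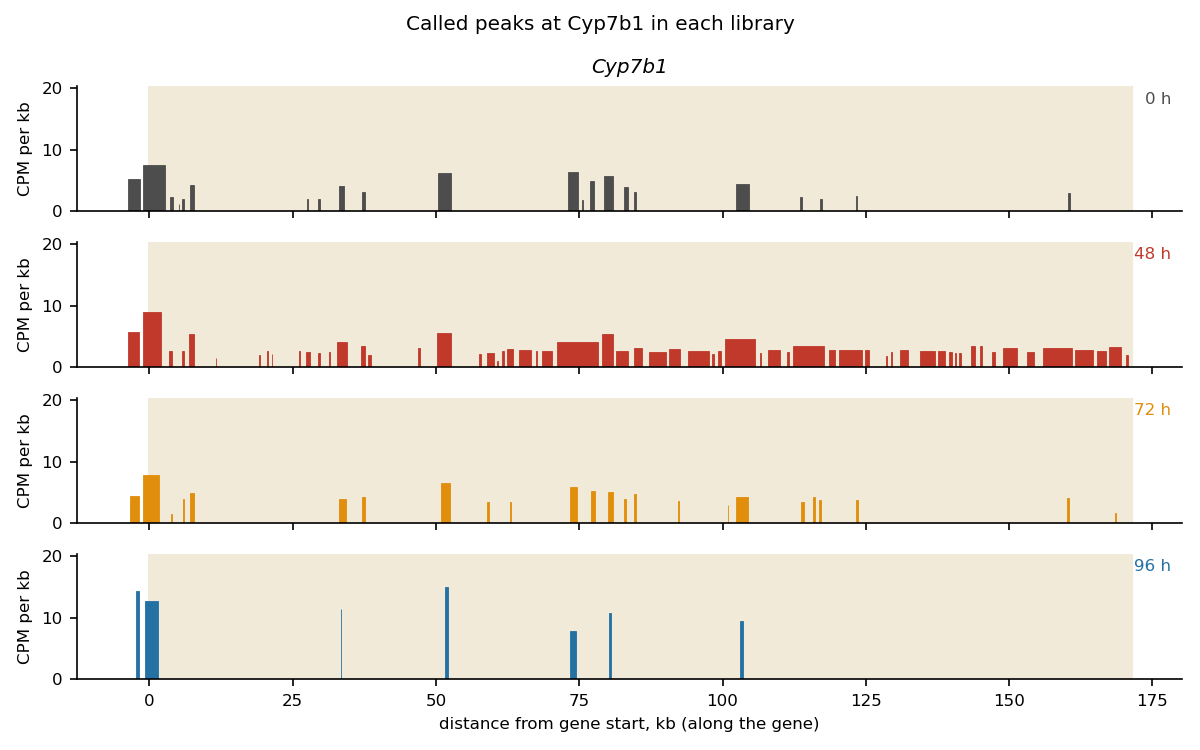
Every called peak at Cyp7b1 in each library, by distance from the gene start in kb (x axis, in the direction of transcription) and density in CPM per kb (y axis, linear, from 0); the shaded band is the gene. At 48 h, 61 peaks touch the gene window, most of them of low density, against 22 at 0 h, while the peak at the start is present in all 4 libraries.

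The enzymes that remodel the sterol ring differed less. Hsd3b7 (ENSMUSG00000042289.11, chr7:127800604-127803802, plus strand), a dehydrogenase and isomerase, had 55.9, 47.9, 43.2 and 27.5 CPM at 0, 48, 72 and 96 h. With all peaks of its region the 96 h level was 39.6 CPM, a log2 ratio of -0.48 in place of -0.996. Its window is shared with Setd1a and Gm49388. Akr1d1 (ENSMUSG00000038641.12, chr6:37530173-37568815, plus strand), the steroid reductase that gives bile acids their bent ring, had 89.9, 97.3, 68.9 and 77.3 CPM, within 2-fold of 0 h throughout.

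The side chain enzymes were lowest at 96 h on the gene window. Amacr (ENSMUSG00000022244.7, chr15:10981756-10996626, plus strand), a racemase of peroxisomes and mitochondria, had 86.1 CPM at 0 h (84.0–88.4), 67.1 at 48 h (64.2–70.0), 48.0 at 72 h (44.3–52.1) and 39.4 at 96 h (35.0–44.1). Each library was below the one before it, although the intervals of 72 and 96 h meet closely. The log2 ratio at 96 h was -1.11 (-1.28 to -0.94), and -1.03 with all peaks of its regions. Per covered kb the direction was turned, with 6.04 CPM per kb at 0 h and 19.2 at 96 h, a log2 ratio of 1.69, which was 0.44 relative to the median of all genes. The covered length was 14255 bp in undamaged liver against 2050 bp. The window of Amacr is shared with C1qtnf3.

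Scp2 (ENSMUSG00000028603.15, chr4:108043839-108144998, minus strand), which encodes the peroxisomal thiolase of the side chain and a sterol carrier protein, had 501.6 CPM at 0 h (496.3–507.0), 812.2 at 48 h (802.2–822.3), 367.3 at 72 h (356.7–378.1) and 202.1 at 96 h (192.0–212.5). The 48 h library was the high one and the 96 h library the low one. The log2 ratio was 0.69 at 48 h and -1.31 at 96 h, and with all peaks of its regions 0.69 and -1.01. Its density had log2 ratios of 0.52, 0.19 and 1.15, the first of which ranked 130 from the highest of 14833 genes. The sign at 96 h was thus turned per covered kb, with a covered length of 91367 bp in undamaged liver against 16655 bp, but relative to the median of all genes on this measure Scp2 was at -0.10. The GENCODE start of Scp2 belongs to a minor transcript 26466 bp from the principal one. At the principal start, the promoter had 68.8 CPM at 0 h, 89.0 at 48 h, 28.8 at 72 h and 15.2 at 96 h. The window of Scp2 is shared with Podn.

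Slc27a5 (ENSMUSG00000030382.15, chr7:12988346-12998192, minus strand), the ligase that activates bile acids for conjugation, had 173.7 CPM at 0 h, 198.0 at 48 h, 116.7 at 72 h and 89.4 at 96 h in its window. With all peaks of the region these were 173.7, 198.0, 152.5 and 198.5 CPM. The low 96 h value of the window thus came with 10 separate peaks in that library, 7 of which touched the window, against 1 peak at 0 and 48 h. The window is shared with Trim28.

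**Figure D4:**
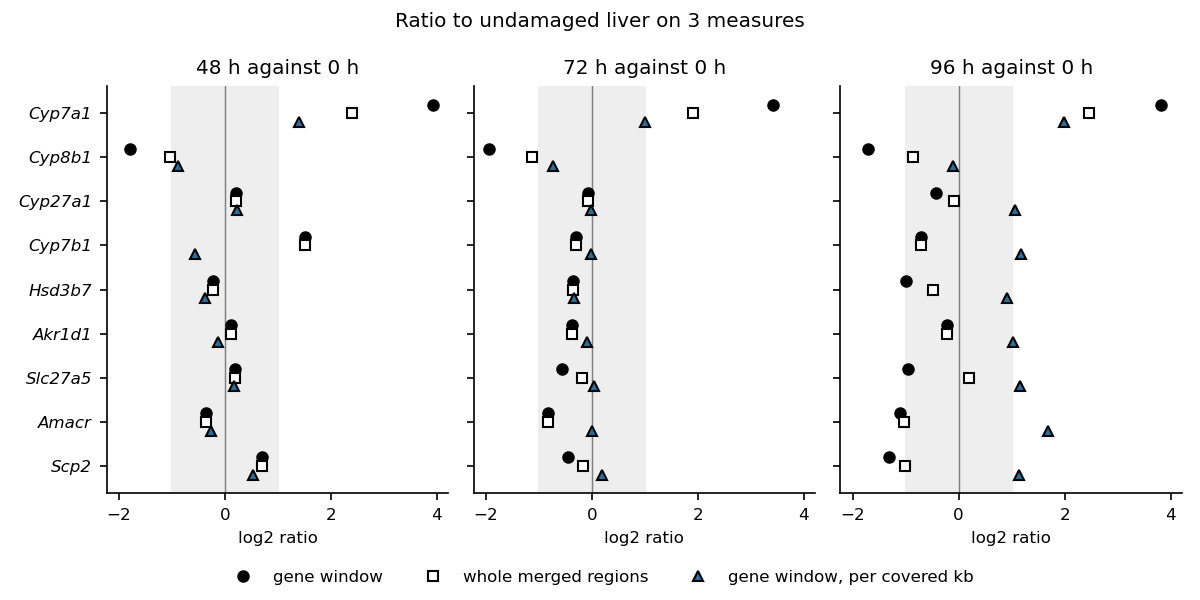
Log2 ratio to undamaged liver (x axis) of the 9 genes (y axis) at 48, 72 and 96 h, one panel per time point. Circles are levels in the gene window, squares levels over whole merged regions and triangles the window level per covered kb, and the grey band marks differences under 2-fold. Cyp7a1 lies to the right of the band on all 3 measures at each time point, and at 96 h the densities of 7 genes lie there, as do those of 72% of all genes. The density of Cyp7a1 over its whole merged region, not drawn, had log2 ratios of 0.84 at 48 h and 0.45 at 72 h.

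Per covered kb of the gene window, Cyp7a1 was at least 2-fold higher at 48 and 72 h and no member was 2-fold lower, where 0.0742% and 1.05% of genes were higher and 1.19% and 0.34% lower. At 96 h, 7 of the 9 members were higher on this measure and 0 lower, where 72% of 14537 genes were higher and 0% lower, so that share is near the background. Over its whole merged region the density of Cyp7a1 did not pass 2-fold at 48 or 72 h, with log2 ratios of 0.84 and 0.45. In the peak at the gene start, 8 members could be compared. Cyp8b1 was lower at 48 h (2.66% of genes), but its peak at the start is the same wide peak as in its gene window in each library, so this is no separate measure. Cyp7a1 was the 1 member higher at 48 h (4.17% of genes), but its value there is that of the fused peak of 18582 bp set against a peak of 1374 bp, and so is not a level of the start site. No member was higher at 72 or 96 h (7.26% and 5.6% of genes). There were 4 lower at 72 h and 4 at 96 h (8.07% and 9.5% of genes), among them Cyp27a1 and Slc27a5, whose start-site peak at 0 h was a wide domain of 34143 and 27851 bp and at 72 h a peak of 7904 and 2693 bp. Over whole merged regions, 2 members were higher and 1 was lower at 48 h, 1 and 1 at 72 h, and 1 higher (Cyp7a1) and 2 lower (Amacr and Scp2) at 96 h, with 3.85% and 0.605%, 10% and 2.65%, and 4.72% and 3.55% of genes called.

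Levels were also compared between groups of nuclei. Nuclei in which the 10 hepatocyte markers together had more counts than all markers of the other types together made up 92.8%, 94.2%, 87.7% and 94.9% of each library. They are a range on a score and not a type, and between 180 and 594 nuclei per library lay within 2 counts of the tie. With each nucleus thinned to 1000 counts, 3.55% of these nuclei had a count at Cyp7a1 at 0 h (2.98%–4.20%, exact binomial 95% interval), 15.2% at 48 h (14.0%–16.4%), 10.3% at 72 h (9.30%–11.3%) and 14.0% at 96 h (12.8%–15.3%). Without thinning these shares were 41.8%, 51.6%, 27.2% and 30.3%.

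In the nuclei led by markers of another type, the thinned shares for Cyp7a1 were 0 of 210 at 0 h, 1 of 165 at 48 h, 17 of 339 at 72 h and 4 of 64 at 96 h. Their median depth was 1506 to 3796 counts, against 3860 to 28514 in the hepatocyte-marker-led nuclei. The share in hepatocyte-marker-led nuclei lay above this background at 0 h (where the interval of the 210 other nuclei ended at 1.74%), 48 h and 72 h. At 96 h the intervals overlapped (1.73% to 15.2% in the 64 other nuclei). For Cyp8b1 the shares in hepatocyte-marker-led nuclei were 15.6%, 8.42%, 6.94% and 7.81%, against 4.76%, 1.21%, 5.31% and 6.25% in the others, so that at 72 and 96 h the share was not separable from this background.

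The 0 h nuclei were the deepest, so Cyp7a1 was compared at like depth. In nuclei with 3000 to 8000 counts it had 26.1 CPM over the whole region at 0 h (17.1–38.1), 151.6 at 48 h (136.4–168.1), 139.5 at 72 h (129.7–149.9) and 205.3 at 96 h (190.7–220.7). In those with 8000 to 20000 counts the levels were 35.3, 185.6, 152.4 and 243.5 CPM. The later libraries were above 0 h in each of the 4 ranges of depth compared. Within the 48 h library the level of Cyp7a1 differed with depth, from 111.1 CPM in nuclei with 1000 to 3000 counts to 219.4 in those with 20000 or more, whereas Cyp8b1 went from 84.3 to 93.4 CPM in the same nuclei. Between these ranges Cyp27a1 (164.5 to 277.4 CPM) and Scp2 (586.1 to 828.8) also rose at 48 h, while Hsd3b7 did not (53.5 and 50.5). Cyp7a1 rose with depth at 72 h (84.4 to 237.0 CPM) and 96 h (150.8 to 317.0) too. Cyp8b1 was lower at 48 h than at 0 h in each range of depth, with 88.6 against 173.6 CPM from 3000 to 8000 counts. From 1000 to 3000 counts the intervals overlapped, with 84.3 CPM at 48 h (60.5–114.4) and 119.9 at 0 h (87.1–161.0).

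Hepatocyte function is graded between the portal and the central vein, and bile acid synthesis from cholesterol is known as a pericentral function. Hepatocyte-marker-led nuclei were divided, at 2000 counts each, by whether 8 pericentral genes (such as Glul and Cyp2e1) or 8 periportal genes (such as Ass1 and Hal) had more counts, lists that were added after the levels had been seen. This gave 583 and 2729 nuclei at 0 h, 972 and 2167 at 48 h, 835 and 2057 at 72 h, and 349 and 1862 at 96 h. Cyp7a1 had 41.1 CPM in pericentral-led and 36.5 in periportal-led nuclei at 0 h, a log2 ratio of 0.17 (0.03 to 0.31). At 48 h these levels were 270.3 and 164.2 CPM, a log2 ratio of 0.72 (0.64 to 0.80). At 72 h the log2 ratio was 0.34 (0.19 to 0.50) and at 96 h 0.48 (0.29 to 0.67). Over all depths, Cyp7a1 was thus higher in the pericentral-led nuclei of each library.

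The pericentral-led nuclei were deeper, with a median of 15714 against 12363 counts at 48 h. At 48 h the log2 ratio of Cyp7a1 was 0.78 (0.63 to 0.93) between nuclei of 8000 to 20000 counts and 0.65 (0.56 to 0.75) between those of 20000 or more, so the lead at 48 h was present at like depth, a split added after the levels had been seen. At 0 h the interval held 0 in 2 of 3 ranges (0.16, -0.41 to 0.73, from 8000 to 20000 counts). The 72 h library had a ratio of 0.47 (0.22 to 0.71) from 2000 to 8000 counts, which held most of its nuclei, and of 0.24 (0.02 to 0.46) from 8000 to 20000. In the 96 h library these ratios were 0.69 (0.43 to 0.93) and 0.21 (-0.11 to 0.52). Over all depths, Cyp27a1 was higher in pericentral-led nuclei in every library, with log2 ratios of 0.49, 0.60, 0.25 and 0.41 and intervals above 0, and at 72 h the ratio was 0.33 (0.13 to 0.53) from 2000 to 8000 counts and 0.14 (-0.04 to 0.32) from 8000 to 20000. Hsd3b7 was higher there at 0 h, by 0.33 (0.22 to 0.44), and at 48 h by 0.19 (0.03 to 0.35), and the intervals of its ratio held 0 at 72 and 96 h. Cyp8b1 was lower in pericentral-led nuclei at 0 h, by -0.16 (-0.23 to -0.09), and at 48 h, by -0.18 (-0.30 to -0.06), while at 72 h its log2 ratio was 0.13 (-0.08 to 0.33) and at 96 h -0.33 (-0.66 to 0.01). At like depth, the interval for Cyp8b1 held 0 in 2 of 3 ranges at 0 h and in 2 of 3 at 48 h. Akr1d1 did not differ beyond counting error in any library, with log2 ratios from -0.18 to -0.02. Cyp7b1 was lower in pericentral-led nuclei at 48 h, by -0.12 (-0.18 to -0.05), and Amacr at 0 h, by -0.13 (-0.23 to -0.03). Slc27a5 was higher there at 48 h, by 0.13 (0.05 to 0.21), and Scp2 at 0 h, by 0.08 (0.04 to 0.12), and at 72 h, by 0.10 (0.01 to 0.19). In the other libraries the intervals of these 4 genes held 0. For these 4, Hsd3b7 and Akr1d1, nuclei of like depth were not compared.

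**Figure D5:**
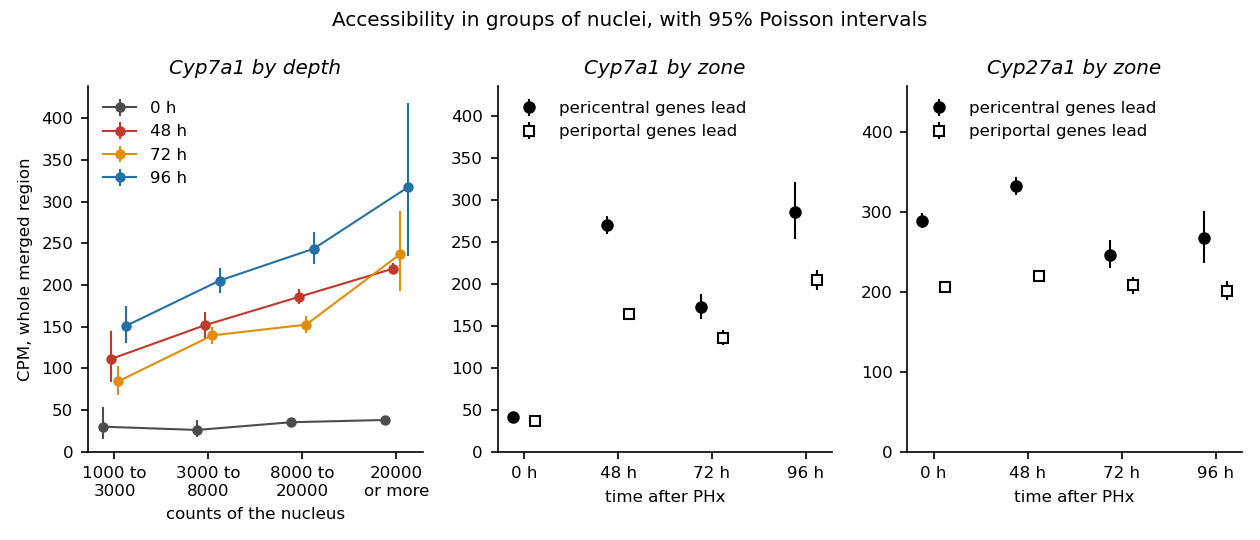
Left, level of Cyp7a1 over its whole merged region in CPM (y axis, linear, from 0) in nuclei of 4 ranges of depth (x axis), one line per library; centre and right, levels of Cyp7a1 and Cyp27a1 in nuclei in which pericentral (filled circles) or periportal (open squares) genes lead, by time after PHx. Bars are 95% Poisson intervals; Cyp7a1 is at 270.3 and 164.2 CPM in the nuclei of the 48 h library, against 41.1 and 36.5 CPM at 0 h.

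Of 11 other genes of the pathway, 1 was called higher at each of the 3 time points and 2 were called lower at 96 h. Over all genes, 4.9%, 10.3% and 4.65% were higher at 48, 72 and 96 h and 8.48% lower at 96 h, so that the count at 72 h is near the background. The gene called higher was Cyp2c70, the mouse enzyme that makes muricholic acids, with 47.4, 150.7, 124.0 and 105.3 CPM and log2 ratios of 1.65, 1.37 and 1.14, which were the same over whole merged regions. Its covered length was 15041, 31450, 25628 and 10048 bp, and per covered kb the ratios were 0.58, 0.60 and 1.72, so that it no longer passed 2-fold at 48 and 72 h. The genes called lower were Cyp2a12, a bile acid hydroxylase of the mouse, with 58.4 CPM at 0 h and 7.90 at 96 h, and Abcd3, a peroxisomal transporter, with 293.2 and 104.9 CPM. Over whole merged regions their log2 ratios at 96 h were -1.13 and -1.30. Per covered kb the sign was turned, with 1.38 for Cyp2a12 (769 bp covered, against 13329 bp in undamaged liver) and 1.52 for Abcd3 (7275 against 58155 bp), where 72% of all genes were at least 2-fold higher. The median of the 11 was -0.08, 0.00 and -0.18, close to that of all genes at 48 and 72 h.

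Of 12 regulators of the pathway, none was called higher, and 1, 3 and 2 were called lower at 48, 72 and 96 h. Of all genes compared, 4.9%, 10.3% and 4.65% were called higher and 1.97%, 6% and 8.48% lower. Nr0b2 (SHP), a repressor of Cyp7a1 and Cyp8b1, had 144.3, 93.5, 51.8 and 70.9 CPM, with log2 ratios of -0.62, -1.46 and -1.02. Dbp, a circadian activator of Cyp7a1, had 321.9, 173.9, 91.5 and 148.6 CPM, with log2 ratios of -0.88, -1.80 and -1.11. Zfp36l1, an RNA-binding protein that promotes decay of Cyp7a1 mRNA, had 665.3, 330.0, 223.1 and 366.8 CPM, with log2 ratios of -1.01, -1.57 and -0.86. Over whole merged regions the ratios of Nr0b2 were -0.62, -1.09 and -0.74, those of Dbp -0.88, -1.68 and -1.01, and those of Zfp36l1 -0.62, -1.17 and -0.52. Per covered kb they were -0.53, -0.25 and 0.72 for Nr0b2, -0.86, -1.36 and -0.63 for Dbp, and 0.04, -0.10 and 0.86 for Zfp36l1. At 96 h 72% of all genes were at least 2-fold higher on this measure and none of the 3 was, so that all 3 lay below the median gene there.

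The genes whose 3 ratios to 0 h lay nearest those of Cyp7a1, by Euclidean distance on the log2 scale among 11307 genes with a mean of at least 20 CPM, were 1700001K19Rik (distance 1.14), Dmrta2 (1.62), Prg4 (1.79), Myl7 (2.15) and Tnfsf14 (2.41). None of the 5 is a gene of the lists above. The distance rests on 4 libraries, 1 of which is the shared 0 h library.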

How the data were processed

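The deposited matrices hold whole counts of transposase cut sites per peak and barcode. Cell Ranger ATAC (version 1.1.0 in the file headers) was the tool by which the authors aligned reads, removed duplicates and counted; mm10 is named in the submitters' processing notes. Between 87.3% and 88.6% of values were even, as both ends of a fragment add counts, so Poisson intervals used counts divided by 2. All peaks ended inside GRCm38 chromosomes, and 55.6% to 64.3% of gene starts lay in a peak, against 4.62% to 13.2% of starts moved by 100 kb. Barcodes with at least 1000 counts were kept. No doublet caller was run. The sources used here name no cutoffs for the study's own filter. Leaving out the 5% of nuclei with the most counts was 1 of the alternatives.

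Counts in peaks touching a GENCODE vM21 gene body or the 2 kb upstream were summed per library and scaled to CPM. Genes with a mean of at least 5 CPM entered each comparison, and log2 ratios used a pseudocount of 1 CPM. The exact interval of a ratio was moved to that scale. Promoters were 1 kb either side of the gene start. Named genes were all 9 members, at most 4 genes of each other list that differed 2-fold, and the 5 nearest to Cyp7a1. The members and lists were chosen with earlier results of these data known, and the lists of zones after the levels had been seen. There were 21 planned and 2 added alternatives. The computation was tested on simulated data, with Python 3.11.15, numpy 2.4.6, pandas 2.3.3 and scipy 1.17.1.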

Additional observations from a re-analysis of the deposited data

How the results depend on the processing

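There were 23 alternatives, of which whole merged regions and the promoter of the principal transcript were chosen after seeing the data. Cyp7a1 kept its direction under each of 20 that gave a value at 48 and 96 h, with log2 ratios from 1.40 to 4.59 and from 0.57 to 4.38, and at 72 h from 0.08 to 3.99. The promoter alone, where the Cyp7a1 peak of 48 h includes the gene body, counted 1 member higher at 48 h, 0 at 72 h and 0 at 96 h, and 4 lower at 72 h. At the principal transcript these counts were 1, 0 and 0 higher (4.24%, 7.19% and 5.49% of genes), and 5 lower at 72 and at 96 h (8.2% and 9.64% of genes). In shared regions only, 1 member was higher at 48 h (2.97% of genes). Per covered kb, 1 was higher and 0 lower at 48 h, 0 lower at 72 h, and 7 higher and 0 lower at 96 h; Cyp7b1 at 48 h reversed to -0.57, and Amacr and Scp2 at 96 h to 1.69 and 1.15, which relative to the median of all genes were 0.44 and -0.10. Binarised counts gave 0 lower at 48, 72 and 96 h (0.863%, 4.33% and 7.34% of genes), and 2 higher at 72 and at 96 h (6.96% and 3.76%). Scaling to shared regions or to the median gene gave 5 lower at 96 h (10.2% and 9.63% of genes). A limit of 1.5-fold gave 2 lower at 72 h (16% of genes, so near the background) and 6 at 96 h (17.1%). Leaving out peaks in the window of another gene gave 3 higher at 72 h and 4 at 96 h (14.8% and 10.3% of genes). It gave 0 lower at 48 and 72 h (1.85% and 3.25% of genes), where 5 and 7 members had a value and Cyp8b1, the member called lower, had none. Cyp8b1 at 96 h reversed to 5.88. This alternative drops a wide peak at 0 h and keeps its pieces later. Except where named, the cause was not tested. No member had a region of near-equal length in all libraries, so that alternative gave no value. No paired analysis was possible because there was 1 library per time point, and no library could be left out. The 96 h library was the shallowest and limits the precision there.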
